A study of Mus musculus with 4 samples.

Results

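The genes described here are the TREM receptors (triggering receptors expressed on myeloid cells) together with the adaptors and the kinase through which they signal. They were chosen by gene symbol and comprise 9 of the 28585 genes listed: the receptors *Trem1*, *Trem2*, *Trem3*, *Treml1*, *Treml2* and *Treml4*, the adaptors *Tyrobp* (DAP12) and *Hcst* (DAP10), and the kinase *Syk*. In neonatal polymorphonuclear myeloid-derived suppressor cells (PMN-MDSCs, neutrophil-like cells that restrain T cells), the receptor *Trem1* had a lower level in libraries from pups with a myeloid Cre deletion of *Dhps* (Dhps cko), at 81.0% of the mean of Dhps flox controls, while *Trem3*, the next receptor gene along the chromosome, was at 104.8% and the shared adaptor *Tyrobp* at 117.0%. Of the 9 genes, 8 had a mean of at least 0.1 FPKM and were tested; *Treml1* was below that level. An unadjusted p under 0.05 was obtained for 2 of the 8, *Trem1* (lower) and *Tyrobp* (higher), where 7.0% of all 17948 genes tested had one, and with 8 genes this count is a description. An adjusted p under 0.05 was obtained for 0 of them, against 0.00557% of all genes.

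PMN-MDSCs from spleens of pups on postnatal day 7 were profiled by bulk RNA sequencing, in which each library averages over its cells. There were 2 libraries of the genotype Dhps cko (Dhps fl/fl with Lysm cre) and 2 of the genotype Dhps flox (Dhps fl/fl without the Cre). All 4 carry the floxed *Dhps* gene, which encodes deoxyhypusine synthase, and in Dhps cko the Cre recombinase is produced from the lysozyme *Lyz2* locus, active in neutrophils, monocytes and macrophages alike. The mice were on a C57BL/6J background, the genotypes were littermates, and the cells were gated as CD11b+ Ly6C low or negative Ly6G+. The paper states that this gate may hold other polymorphonuclear cells along with PMN-MDSCs. The sources do not state whether each library came from 1 pup or from pooled pups, so p-values measure the spread between these libraries.

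TREM receptors have a single immunoglobulin-like domain outside the cell, and several of them have almost no tail inside it. Those receptors pair, through a charged residue in the membrane, with the adaptor DAP12. Its ITAM (a motif with paired tyrosines) is phosphorylated by Src family kinases and then recruits the kinase SYK. TREM-1 amplifies inflammatory responses of neutrophils and monocytes, and TREM-2 is best known as a lipid-sensing receptor of macrophages and microglia.

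The deposited values are FPKM, fragments per kilobase of transcript scaled to the mapped fragments of the library, a level that can be compared between genes of different length. The FPKM summed to between 304281 and 319286 per library. Steps between the low values of single-exon genes gave approximate depths of 29900000 to 32050000 fragments, although only 38.9% to 41.8% of them fell close to a multiple of the step (within 0.15 of a step), a share that would be 30% for evenly spread values. The targeted gene *Dhps* was at 2.38 and 2.59 FPKM in Dhps cko and at 3.57 and 3.11 FPKM in Dhps flox, a log2 fold change of -0.41 (standard error 0.13, limma adjusted p = 0.63), so its transcript was lower but present in the libraries labelled Dhps cko; *Dhps* shares 128 exon bases with *Wdr83* on the opposite strand. *Lyz2*, the locus that carries the Cre, was at 2245.27 and 2379.85 FPKM in Dhps cko and 6873.61 and 6544.27 FPKM in Dhps flox. *Ly6g*, which encodes the antigen used for the gate, was at 222.16 and 241.58 FPKM in Dhps cko and 194.95 and 184.8 FPKM in Dhps flox. The summed level of 4 Y-linked genes was 7.07 and 8.07 FPKM in Dhps cko and 17.64 and 15.62 FPKM in Dhps flox, and that of *Xist* was 27.54 and 20.27 FPKM against 16.25 and 17.17 FPKM. These values moved with genotype, and their part in the results was not tested.

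The comparison of Dhps cko with Dhps flox used limma over the 17948 genes tested, on a scale of log2(FPKM + 0.1), which understates the changes of low genes. An adjusted p under 0.05 (Benjamini-Hochberg over all genes) was reached by 1 gene, or 0.00557% of those tested, and that gene is not a TREM gene. An unadjusted p under 0.05 was found for 7.0% of genes, 4.72% higher and 2.28% lower in Dhps cko. The values of both Dhps cko libraries lay above or below both Dhps flox libraries for 36.0% of genes, 20.0% higher and 16.0% lower. The median log2 fold change over all genes tested was 0.01. Since 2 libraries stand against 2, an exact permutation test of a single value cannot give a two-sided p below 0.33.

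*Trem1* (ENSMUSG00000042265) occupies bases 48232768 to 48246924 of chromosome 17 (GRCm38, plus strand). Its level was 50.35 and 52.98 FPKM in Dhps cko and 68.58 and 58.93 FPKM in Dhps flox. Both Dhps cko values were below both Dhps flox values, and the wider spread was in Dhps flox, where replicate 1 was the highest of the 4 libraries. The means were 51.7 ± 1.86 FPKM (SD, n = 2) and 63.8 ± 6.82 FPKM (SD, n = 2). The log2 fold change was -0.30 (standard error 0.09, limma adjusted p = 0.62), and its 95% interval ran from -0.53 to -0.07. Without Dhps flox replicate 1 it was -0.19, and the unadjusted p was above 0.05 without that library, without Dhps cko replicate 1, without Dhps cko replicate 2 or without a variance trend. A fit without 1 library leaves its genotype with a single one, which is assumed to vary like the other genotype. The study lists *Trem1* among immunosuppressive genes that were lower in Dhps cko than in littermates. It did so from these same libraries, so the direction of *Trem1* is a description rather than independent evidence. In bulk samples, fewer cells of a type and less RNA per cell cannot be told apart.

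**Figure D1:**
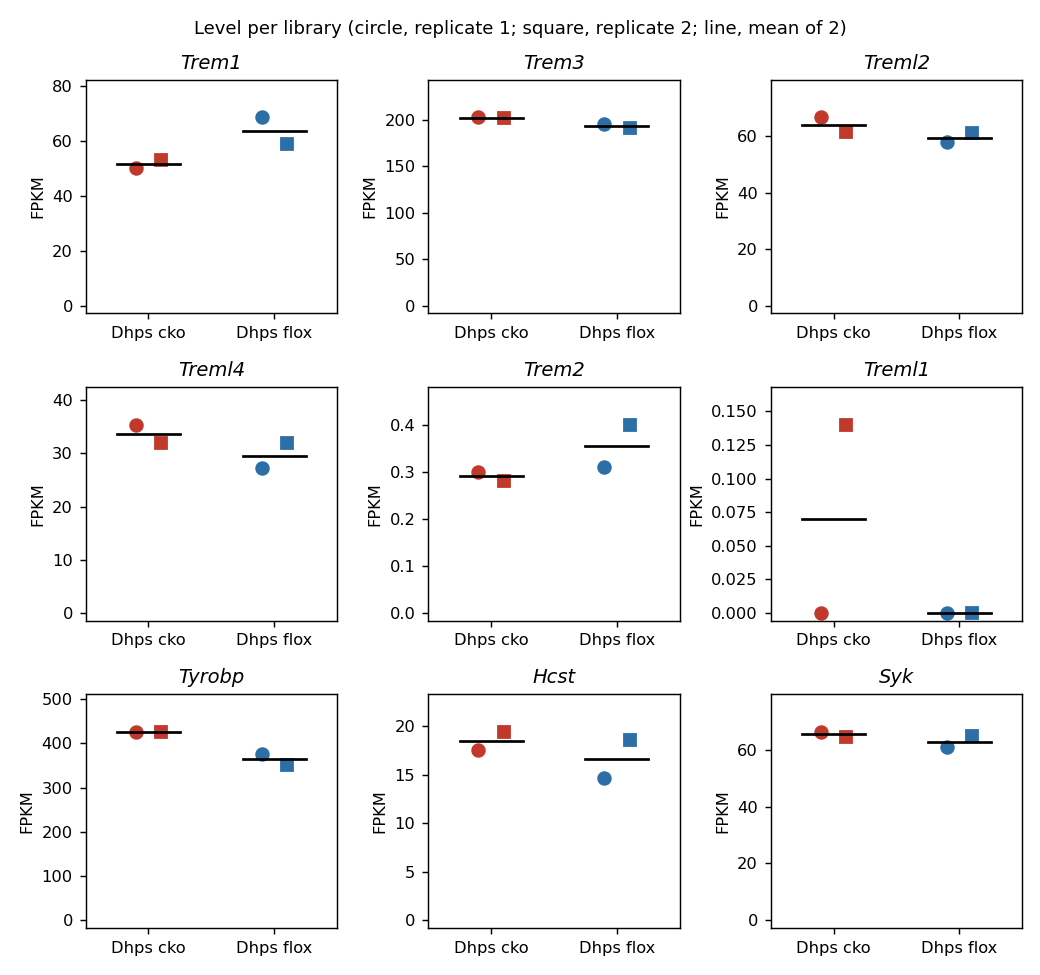
Level of each of the 9 genes in the 4 libraries, in FPKM on linear axes that include 0, with Dhps cko in red and Dhps flox in blue; circles are replicate 1, squares are replicate 2 and lines are the mean of 2. *Trem1* is lower in both Dhps cko libraries (50.35 and 52.98 FPKM) than in both Dhps flox libraries (68.58 and 58.93 FPKM), whereas *Tyrobp* is higher (425.62 and 424.74 against 376.46 and 350.19 FPKM).

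*Trem3* (ENSMUSG00000041754), a TREM-1 relative of mice that also couples to DAP12, begins 852 bases after the end of *Trem1* on the same strand (48247777 to 48258841). It was the most abundant of the 6 receptors, at 202.48 and 201.61 FPKM in Dhps cko and 195.17 and 190.59 FPKM in Dhps flox. The Dhps cko values were the higher ones, by a small margin that was within the error of the test. Its log2 fold change was 0.07 (standard error 0.05, limma adjusted p = 0.82), with a 95% interval from -0.06 to 0.20, and it was -0.02 after quantile normalization. The upper bound of the *Trem1* interval and the lower bound of the *Trem3* interval were nearly the same, at -0.07 and -0.06.

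*Treml4* (ENSMUSG00000051682; 48264295 to 48275360, plus strand), a DAP12-coupled receptor that binds dead cells and is known from splenic macrophages and dendritic cells, follows *Trem3* in the cluster. It was at 35.41 and 31.93 FPKM in Dhps cko and at 27.21 and 31.92 FPKM in Dhps flox. The groups were separated by only 0.01 FPKM, between replicates 2 of each genotype. The log2 fold change was 0.19 (standard error 0.10, limma adjusted p = 0.78), and it ranged from 0.07 to 0.30 with single libraries left out.

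*Treml2* (ENSMUSG00000071068; 48299498 to 48312533, plus strand), a receptor of neutrophils, macrophages and B cells that is not known to need DAP12, was at 66.65 and 61.57 FPKM in Dhps cko and 57.8 and 61 FPKM in Dhps flox. The closest values of the genotypes were less than 1 FPKM apart, again with Dhps cko the higher. The log2 fold change was 0.11 (standard error 0.07, limma adjusted p = 0.80), with a 95% interval from -0.06 to 0.28, and it was 0.05 without Dhps cko replicate 1 and 0.17 without Dhps cko replicate 2. B cell markers were also higher in Dhps cko, with an unadjusted p under 0.05 by limma for 5 of 8 (4.72% of all genes). Their summed level was 64.91 and 67.69 FPKM against 41.47 and 50.82 FPKM in Dhps flox. Within Dhps cko, replicate 2 had the higher sum but the lower level of *Treml2*, and within Dhps flox it had the higher value of both. The part of these markers in the level of *Treml2* was not tested.

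*Trem2* (ENSMUSG00000023992; 48346401 to 48354147, plus strand) was near the detection limit, at 0.30 and 0.28 FPKM in Dhps cko and 0.31 and 0.40 FPKM in Dhps flox. At the approximate depths such values stand for between 5 and 57 fragments per library, depending on which transcript length applies. Its log2 fold change of -0.22 had a 95% interval from -0.99 to 0.56. That interval holds both 0 and the value of *Trem1* (-0.30), so a difference of that size could not be told apart from none. *Treml1* (ENSMUSG00000023993; 48359916 to 48367176, plus strand), a receptor of platelet granules, was listed at 0 in 3 libraries and at 0.14 FPKM in Dhps cko replicate 2, or about 4 to 5 fragments, and was not tested. Platelet and megakaryocyte markers, of which 0 of 8 were at 0 in every library, summed to 13.31 and 11.95 FPKM in Dhps cko and 10.91 and 14.46 FPKM in Dhps flox, so these overlapped.

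**Figure D2:**
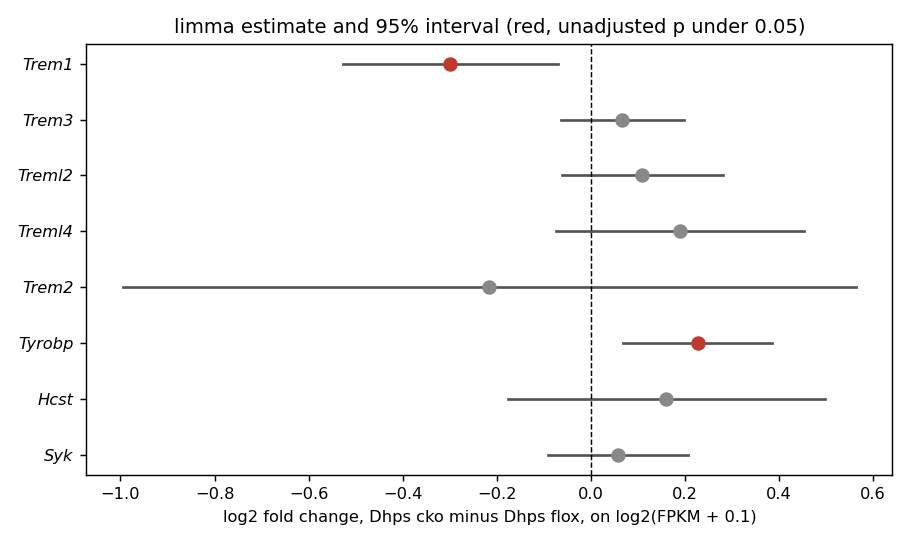
Log2 fold change (Dhps cko minus Dhps flox) of the 8 genes tested, with the 95% interval from limma on log2(FPKM + 0.1); red points have an unadjusted p under 0.05. The interval of *Trem1* (-0.53 to -0.07) lies below 0 and that of *Tyrobp* (0.07 to 0.39) above it, and the other 6 intervals include 0.

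The adaptor *Tyrobp* (ENSMUSG00000030579; chromosome 7, 30413760 to 30417585, plus strand), which carries the ITAM for most TREM receptors, was the most abundant of the 9 genes. It was at 425.62 and 424.74 FPKM in Dhps cko and at 376.46 and 350.19 FPKM in Dhps flox. The Dhps cko libraries were nearly identical and both lay above Dhps flox. The means were 425.2 ± 0.622 FPKM (SD, n = 2) and 363.3 ± 18.6 FPKM (SD, n = 2), and the log2 fold change was 0.23 (standard error 0.06, limma adjusted p = 0.57), with a 95% interval from 0.07 to 0.39. The unadjusted p was above 0.05 without Dhps cko replicate 1, without Dhps cko replicate 2, without a variance trend and with the replicate number as a block, although the log2 fold change stayed at 0.23 in each of these fits.

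Some other measures moved with *Tyrobp*. Of 12 macrophage markers, 5 had an unadjusted p under 0.05 and were higher in Dhps cko (4.72% of all genes), and their summed level was 285.42 and 293.58 FPKM against 240.86 and 238.85 FPKM. The 12 did not all have the same direction, with 10 log2 fold changes above 0 and 2 below it. *C1qa*, a complement subunit made by macrophages and the marker with the lowest p, was at 25.73 and 28.31 FPKM in Dhps cko and 18.62 and 18.67 FPKM in Dhps flox. *Mertk*, a receptor for dying cells, was at 4.11 and 4.02 FPKM in Dhps cko and 4.75 and 4.44 FPKM in Dhps flox, and *Spic*, a factor of red pulp macrophages, had a log2 fold change of -0.01. None of the 12 was at 0 in all libraries. *Tyrobp* has 667 merged exon bases, and the 632 genes of 500 to 1000 bases that averaged 1 FPKM or more had a median log2 fold change of 0.09, against -0.01 for the 4970 genes of 3500 to 10000 bases. The part of these markers and of transcript length in the level of *Tyrobp* was not tested.

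*Hcst* (ENSMUSG00000064109; chromosome 7, 30417712 to 30419854, minus strand) encodes DAP10, an adaptor that lacks an ITAM and instead recruits phosphoinositide 3-kinase. It ends 126 bases from the end of *Tyrobp*, on the opposite strand. Its level was 17.53 and 19.4 FPKM in Dhps cko and 14.66 and 18.54 FPKM in Dhps flox, so the genotypes overlapped. The log2 fold change of 0.16 (standard error 0.13, limma adjusted p = 0.83) went to -0.01 without Dhps flox replicate 1. *Tyrobp* was 24.3 and 21.9 times the level of *Hcst* in Dhps cko and 25.7 and 18.9 times in Dhps flox. T and NK cell markers, which mark other cells that use DAP10 and of which 2 of 7 tested had an unadjusted p under 0.05 and were higher in Dhps cko (4.72% of all genes), summed to 16.85 and 13.39 FPKM in Dhps cko and 11.04 and 7.95 FPKM in Dhps flox, and their part was not tested.

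*Syk* (ENSMUSG00000021457; chromosome 13, 52583173 to 52648792, plus strand), the tyrosine kinase that binds the phosphorylated ITAM, was at 66.28 and 64.59 FPKM in Dhps cko and 61.02 and 64.76 FPKM in Dhps flox. The genotypes overlapped. Its log2 fold change was 0.06 (standard error 0.06, limma adjusted p = 0.87), with a 95% interval from -0.09 to 0.21, which does not hold a decrease of the size estimated for *Trem1*. The value was 0.01 without Dhps flox replicate 1 and 0.10 without Dhps flox replicate 2.

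By mean level over the 4 libraries, the order was *Tyrobp* (394.3 FPKM), *Trem3* (197.5), *Syk* (64.2), *Treml2* (61.8), *Trem1* (57.7), *Treml4* (31.6), *Hcst* (17.5), *Trem2* (0.32) and *Treml1* (0.035). *Syk*, *Treml2* and *Trem1* overlapped one another over the libraries, and so their order is not resolved. In Dhps flox the mean of *Trem1* (63.8 FPKM) was above those of *Treml2* (59.4) and *Syk* (62.9), and in Dhps cko (51.7 FPKM) it was below both (64.1 and 65.4).

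*Trem1* was also compared with its relatives within each library, as a ratio that a single scaling factor per library does not alter. A shift that depends on transcript length stays in such a ratio. *Trem1* has 2996 merged exon bases, *Trem3* 994 and *Tyrobp* 667. Genes of 500 to 1000 bases that averaged 1 FPKM or more had a median log2 fold change of 0.09, and those of 2500 to 3500 bases 0.05. The part of length in the ratios was not tested. Per 100 FPKM of *Trem3*, there were 24.9 and 26.3 FPKM of *Trem1* in Dhps cko and 35.1 and 30.9 in Dhps flox. Per 100 FPKM of *Tyrobp*, there were 11.8 and 12.5 in Dhps cko and 18.2 and 16.8 in Dhps flox. These ratios did not overlap between genotypes, with log2 differences of -0.37 and -0.53. That separation follows from the levels given above, since *Trem1* was lower and *Trem3* and *Tyrobp* were higher in both Dhps cko libraries. The same holds for *Treml2* and *Treml4*, but not for *Syk*, whose levels overlapped. The exact permutation p was 0.33 for each, the smallest that this design can give. The same p was obtained for the ratios to *Treml2* (-0.41), *Treml4* (-0.49) and *Syk* (-0.36), so 5 ratios that share the same *Trem1* values were compared. Adjusting over them leaves each p at or above 0.33.

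**Figure D3:**
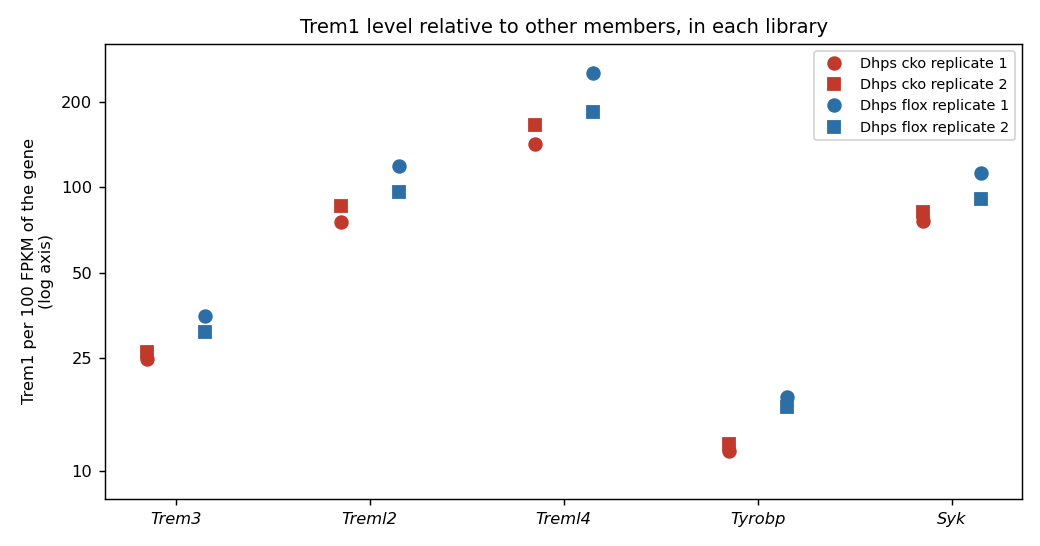
*Trem1* per 100 FPKM of each of 5 other genes, in each library, on a log axis; red is Dhps cko, blue is Dhps flox, circles are replicate 1 and squares are replicate 2. In each of the 5 columns both red points lie below both blue points, for example 11.8 and 12.5 against 18.2 and 16.8 for *Tyrobp*. Except for *Syk*, this follows from the levels of the single genes.

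The 6 receptors summed to 355.19 and 348.51 FPKM in Dhps cko and 349.07 and 342.84 FPKM in Dhps flox, and these overlapped. Within that sum *Trem1* made up 14.2% and 15.2% in Dhps cko and 19.7% and 17.2% in Dhps flox, while *Trem3* made up 57.0% and 57.9% against 55.9% and 55.6%. Relative to the adaptor, there were 0.835 and 0.821 FPKM of receptor per FPKM of *Tyrobp* in Dhps cko and 0.927 and 0.979 in Dhps flox (exact permutation p = 0.33).

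The tested genes did not share a direction. *Trem1* and *Trem2* were lower in both Dhps cko libraries, *Trem3*, *Treml2*, *Treml4* and *Tyrobp* were higher in both, and *Hcst* and *Syk* overlapped. Their median log2 fold change was 0.09, or 0.11 if *Trem1* is left out. In 2 of these separations, *Trem2* and *Treml4*, the nearest values of the genotypes were within 0.01 FPKM, the rounding of the files. The background for such separations was the 36.0% of all genes given above, and with 8 genes the count is a description.

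The promoter windows of *Trem1* and *Treml4* are shown as a pair picked for log2 fold changes of opposite sign, from genes that sit on either side of *Trem3*. They are the 250 bases before each start in RefSeq (GRCm38.p6), chr17:48232489-48232738 and chr17:48264045-48264294, both on the plus strand, read 5′ to 3′. Capitals mark matches to any of 4 motifs searched on both strands: C/EBP (TTGCNNAA), AP-1 (TGANTCA), ETS (GGAAGT) and NF-kB (GGG and CC separated by 5 bases of any kind).
Trem1: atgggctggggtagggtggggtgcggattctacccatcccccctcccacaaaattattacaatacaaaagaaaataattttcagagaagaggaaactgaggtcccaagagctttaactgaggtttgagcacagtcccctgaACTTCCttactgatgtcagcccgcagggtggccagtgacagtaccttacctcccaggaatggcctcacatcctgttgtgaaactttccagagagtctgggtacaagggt
Treml4: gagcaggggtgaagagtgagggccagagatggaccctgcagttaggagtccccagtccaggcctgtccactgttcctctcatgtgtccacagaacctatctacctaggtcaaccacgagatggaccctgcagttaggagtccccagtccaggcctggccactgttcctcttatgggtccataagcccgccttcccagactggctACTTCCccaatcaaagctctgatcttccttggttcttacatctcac

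Each of these windows held 1 ETS match, on the minus strand, between 109 and 104 bases before the start for *Trem1* and between 46 and 41 bases before the start for *Treml4*. Among all 32841 promoter windows of this length, 19.7% held an ETS match, 9.57% a C/EBP match, 6.75% an AP-1 match and 45.8% an NF-kB match. Neither window held letters of the other 3 motifs, which says only that these letters are not in these 250 bases. Of the 9 genes, 6 had a window in the table used, and *Trem3*, *Treml2* and *Tyrobp* did not. The windows of *Trem2* and *Treml1*, on the same strand of the cluster, and of *Hcst* and *Syk* are not shown.

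A further gene lies inside *Trem1*, and it was chosen after its values were seen. *Gm18679* (ENSMUSG00000117318; 48238211 to 48240641, minus strand) is a processed pseudogene that lies wholly within a *Trem1* intron, between the exon that ends at 48237354 and the exon that starts at 48241486. Its sequence of 1766 bases matches transcripts of *Ewsr1*, an RNA-binding protein gene, with 73.7% identity over the longest alignment of 1370 bases. *Gm18679* was at 3.36 and 3.75 FPKM in Dhps cko and at 12.23 and 7.96 FPKM in Dhps flox. Both Dhps cko values were well below both Dhps flox values, and Dhps flox replicate 1 was again the highest, as for *Trem1*. The Dhps cko mean was 35.2% of the Dhps flox mean, a log2 fold change of -1.45 (standard error 0.22, limma adjusted p = 0.40), which placed it at rank 51 of the 17948 genes by p. The unadjusted p was under 0.05 in each of 13 alternatives, and the log2 fold change ran from -1.76 to -1.14 over them. *Ewsr1* itself was at 42.47 and 32.62 FPKM in Dhps cko and 34.67 and 40.46 FPKM in Dhps flox, with a log2 fold change of -0.01. Per 100 FPKM of *Trem1* there were 6.67 and 7.08 FPKM of *Gm18679* in Dhps cko and 17.8 and 13.5 in Dhps flox, so the signal inside the intron was lower by more than the spliced gene (exact permutation p = 0.33). Whether reads were counted by strand is not given in the sources used here, and without strand the reads of the pseudogene and of unspliced *Trem1* RNA cannot be told apart.

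Further along the cluster, few genes stood apart. In the 307 kb from *Trem1* to *Unc5cl*, 14 genes are listed and 13 were tested, of which 2 had an unadjusted p under 0.05 (7.0% of all genes), *Trem1* and *Gm18679*, and 11 did not. The highest log2 fold change among the 11 was that of *Gm49893* (1.08, standard error 0.87), which was listed at 0 in Dhps flox replicate 1 and was below 1 FPKM in every library. The protein-coding gene *B430306N03Rik*, between *Treml2* and *Trem2*, was at 74.22 and 69.13 FPKM in Dhps cko and 66.75 and 73.88 FPKM in Dhps flox, so the genotypes overlapped. *Nfya*, a transcription factor subunit beyond the cluster, was at 14.95 and 14.65 FPKM against 13.59 and 15.42 FPKM, and *Oard1* at 11.21 and 11.16 FPKM against 10.77 and 10.33 FPKM. Of the 7 flanking genes listed, 6 were tested and 0 had an unadjusted p under 0.05 by limma.

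**Figure D4:**
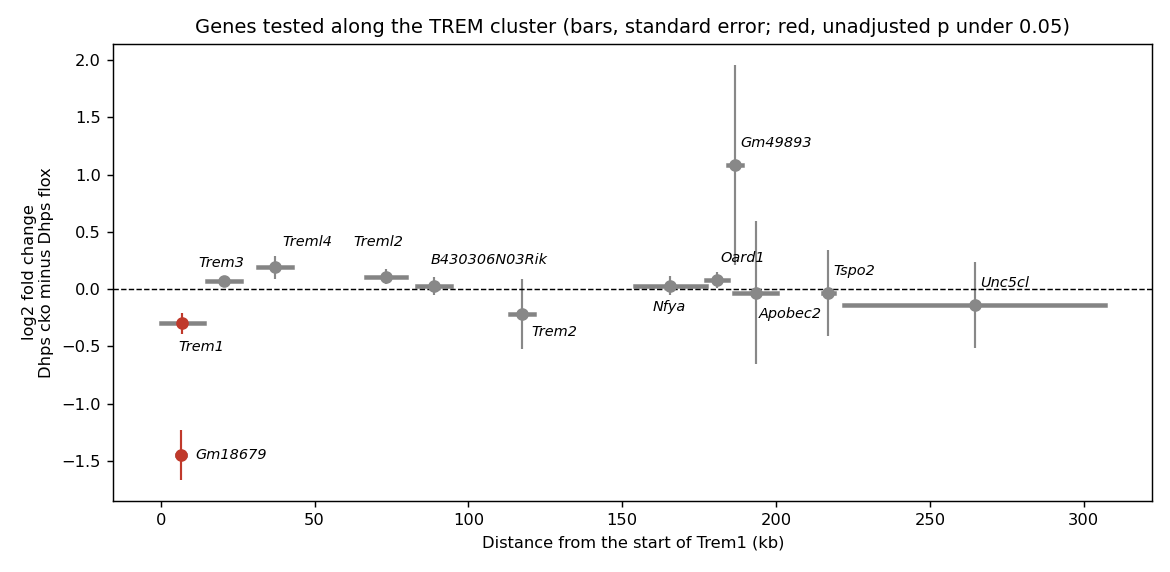
Log2 fold change (Dhps cko minus Dhps flox) of the 13 genes tested along the TREM cluster, against distance from the start of *Trem1* in kb; horizontal bars span each gene, vertical bars are the standard error from limma, and red marks an unadjusted p under 0.05. *Gm18679*, at -1.45, lies inside *Trem1*, at -0.30, and the neighbours *Trem3* (0.07) and *Treml4* (0.19) lie above 0.

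The remaining ITAM adaptors were compared with *Tyrobp*. *Fcer1g*, the Fc receptor gamma chain, which like DAP12 carries an ITAM, was at 330.21 and 331.67 FPKM in Dhps cko and 288.65 and 284.79 FPKM in Dhps flox. It was higher in both Dhps cko libraries, with a log2 fold change of 0.21 (standard error 0.05, limma adjusted p = 0.54), and the unadjusted p was under 0.05 in 9 of 13 alternatives. *Tyrobp* per 100 FPKM of *Fcer1g* was 128.9 and 128.1 in Dhps cko and 130.4 and 123.0 in Dhps flox, so the balance of the adaptors overlapped between genotypes. The T cell adaptor *Cd247* and the kinase *Zap70* were between 0.04 and 0.27 FPKM in every library, and *Cd247* shares 3007 exon bases with *Pou2f1* on the opposite strand, so its value is uncertain.

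Of 11 other receptors that couple to DAP12 or DAP10, 10 were tested, 3 had an unadjusted p under 0.05 with a higher level in Dhps cko, and 0 with a lower level, where the shares of all genes were 4.72% and 2.28%. Their median log2 fold change was 0.20, against 0.01 over all genes, but the 4 most abundant of them, given next, were at -0.03 to 0.16. The highest values, of *Siglech* (0.57) and *Cd200r3* (0.50), belong to genes that averaged under 0.2 FPKM. *Clec5a*, a DAP12 partner that recognises glycans, was at 65.76 and 67.43 FPKM in Dhps cko and 71.3 and 64.85 FPKM in Dhps flox, a log2 fold change of -0.03 that was 0.04 without Dhps flox replicate 1. *Pilrb2*, an activating paired receptor, was at 76.18 and 73.13 FPKM in Dhps cko and 65.4 and 68.24 FPKM in Dhps flox (0.16, limma adjusted p = 0.68). *Cd300lb* was at 43 and 49.23 FPKM against 41.6 and 42.61 FPKM, and *Pilrb1* at 47.48 and 44.63 FPKM against 40.75 and 43.5 FPKM. The others with a p under 0.05 were *Sirpb1a* (0.49, adjusted p = 0.68) and *Sirpb1b* (0.22, adjusted p = 0.70). Over 13 alternatives the unadjusted p was under 0.05 in 6 for *Pilrb2*, 7 for *Sirpb1a* and 4 for *Sirpb1b*, and without Dhps flox replicate 1 the log2 fold change of *Sirpb1a* was 0.31. The *Sirpb1* and *Pilrb* genes have near-identical copies among which reads could be split, so their values are uncertain.

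Downstream of the receptors, 14 of 14 Src family kinases and SYK effectors were tested and 0 had an unadjusted p under 0.05 by limma, with a median log2 fold change of 0.04. *Fgr*, a Src family kinase that phosphorylates the ITAM, was at 127.33 and 126.71 FPKM in Dhps cko and 114.3 and 120.42 FPKM in Dhps flox. It was higher in both Dhps cko libraries, with a log2 fold change of 0.11 (limma adjusted p = 0.77). *Plcg2*, the phospholipase activated by SYK, was at 104.41 and 102.34 FPKM against 97.19 and 109.1 FPKM, and *Lyn* at 72.2 and 78.34 FPKM against 73.89 and 73.02 FPKM. *Card9*, which links SYK to NF-kB, had a log2 fold change of 0.00.

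Of 7 negative regulators of ITAM signalling, 1 had an unadjusted p under 0.05 with a lower level (2.28% of all genes), the ubiquitin ligase *Cbl*, at 63.17 and 57.93 FPKM in Dhps cko and 68.55 and 69.64 FPKM in Dhps flox (-0.19, limma adjusted p = 0.65). Its unadjusted p was under 0.05 in 8 of 13 alternatives. The phosphatase *Ptpn6* (SHP-1) was at 218.81 and 210.94 FPKM against 192.12 and 206.53 FPKM, and the adaptor *Dok3*, which restrains DAP12 signalling, at 168.32 and 156.04 FPKM against 137.69 and 163.74 FPKM. Neither had an unadjusted p under 0.05.

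Of 7 TREM ligands and shedding proteases, 1 had an unadjusted p under 0.05 with a higher level (4.72% of all genes). This was *Pglyrp1*, a neutrophil granule protein that binds TREM-1, which was at 308.12 and 324.07 FPKM in Dhps cko and 278.84 and 282.65 FPKM in Dhps flox (0.17, limma adjusted p = 0.65). Its unadjusted p was under 0.05 in 5 of 13 alternatives. *Apoe*, a lipoprotein that binds TREM-2, was at 50.92 and 47.99 FPKM against 44.14 and 44.93 FPKM (0.15, limma adjusted p = 0.71). The protease *Adam10*, which sheds TREM receptors, was at 38.11 and 35.63 FPKM against 39.52 and 37.85 FPKM, and *Hmgb1* at 25.44 and 22.51 FPKM against 28.99 and 24.55 FPKM, so both overlapped.

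**Figure D5:**
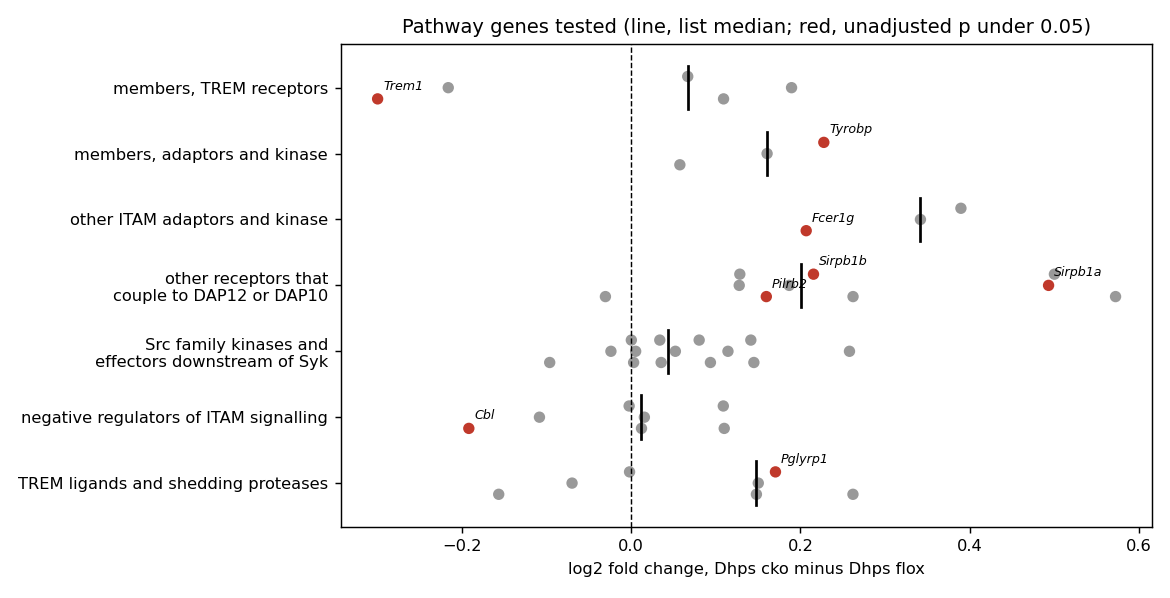
Log2 fold change (Dhps cko minus Dhps flox) of the tested genes of 7 lists of the TREM pathway, each point a gene, the black line the list median and red an unadjusted p under 0.05. The receptors that couple to DAP12 or DAP10 have a median of 0.20 and the genes downstream of SYK a median of 0.04, and *Trem1* (-0.30) is the lowest point.

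The genes whose pattern over the 4 libraries was most like that of *Trem1* were *Ptp4a1* (ENSMUSG00000117310), a phosphatase, *Ccnl1*, a cyclin linked to splicing, and *mt-Tl1*, a mitochondrial transfer RNA. Their centred log2 values each lay at a root mean square distance of 0.040 from those of *Trem1*, among the 3758 genes that averaged 10 FPKM or more. *Ccnl1*, for example, was at 21.86 FPKM in both Dhps cko libraries and at 30.19 and 24.45 FPKM in Dhps flox. With 4 libraries such likeness is a description only.

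Among the other marker lists, 1 of 10 neutrophil markers had an unadjusted p under 0.05 with a higher level (*Ly6g*; 4.72% of all genes), and the list summed to 76076.16 and 78441.34 FPKM in Dhps cko and 76086.12 and 71523.68 FPKM in Dhps flox, with *S100a9* between 24503.84 and 28032.62 FPKM. Of 7 monocyte markers 2 had such a p, both higher in Dhps cko, against the same share of all genes, with sums of 291.77 and 271.8 FPKM against 245.84 and 260.27 FPKM. Of 7 dendritic cell markers 5 were tested, with 0 at such a p by limma and sums of 5.68 and 5.13 FPKM against 3.14 and 4.32 FPKM. None of these markers was at 0 in all 4 libraries, and the part of the cells they mark in the levels of the TREM genes was not tested.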

How the data were processed

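PMN-MDSC RNA from 4 libraries was analysed, 2 per genotype, with groups taken from the genotype labels. The authors filtered reads with Cutadapt, aligned them to mm10 with HISAT2 and calculated the deposited FPKM values with StringTie and ballgown; the annotation and the strand setting are not given in the sources used here. FPKM carry no counts, so count tests were not run.

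FPKM were joined by gene identifier, and coordinates were taken from GENCODE release M21 (GRCm38), which holds 28511 of the identifiers. Genes averaging 0.1 FPKM or more were compared on log2(FPKM + 0.1) with limma 3.58.1 in R 4.3.3 (lmFit, eBayes with a mean-variance trend; two-sided; Benjamini-Hochberg), which was tested on simulated data. Ratios within libraries were compared by exact permutation tests (scipy 1.17.1). Sequences were matched with BLAST+ 2.17.0.

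The 9 genes, the pathway lists and the marker lists were chosen with earlier results of these data known. The named genes are those 9, *Dhps*, up to 4 of the most abundant genes of each list and the 3 genes most like *Trem1*, and list genes with an unadjusted p under 0.05 could be named too; marker lists are given mainly as counts and sums; *Gm18679*, *Ewsr1*, *Gm49893*, *B430306N03Rik*, *Lyz2* and others named outside this rule were chosen after their values were seen. As alternatives, the pseudocount, the filter, the scaling and the variance trend were varied, the replicate number was blocked, and each library was left out. 1 gene that this rule names is not reported here.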

Additional observations from a re-analysis of the deposited data

How the results depend on the processing

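The log2 fold changes of *Trem1*, *Trem2*, *Treml2*, *Treml4*, *Tyrobp* and *Syk* kept their sign under each alternative run (13, or 12 for *Trem2*), and none of these genes reached an adjusted p under 0.05. For *Trem1* the adjusted p ran from 0.47 to 0.95. Reversals were found for *Trem3*, at -0.0185 with quantile normalization, and for *Hcst*, which ran from -0.0076 without Dhps flox replicate 1 to 0.3291 without Dhps flox replicate 2. The median of the tested TREM genes ran from 0.04 to 0.12. The number of TREM genes with an unadjusted p under 0.05, 2 as reported, was 0 without a variance trend, 1 with the replicate block and between 0 and 2 with single libraries left out. It was 0 without Dhps cko replicate 1 or replicate 2 and 1 without Dhps flox replicate 1. Over all genes, a limma adjusted p under 0.05 was reached by 0 genes with a pseudocount of 0.01, with no filter or with the replicate block, by 4 with a mean of at least 1 FPKM, by 2 with TPM or quantile normalization, and by 0 with any library left out. The count at an unadjusted p under 0.05, 1257 as reported, was 819 with the 1 FPKM filter, 1216 with the pseudocount of 0.01, 1675 with no filter, and 746 (without Dhps cko replicate 2) to 1608 with single libraries left out, and 826 without Dhps cko replicate 1. The cause of these shifts was not tested, except that the 1 FPKM filter tests fewer genes. Replicates with the same number did not deviate together (Pearson r of -0.057 across 10629 genes, which are not independent). This compares a single difference per genotype, so it cannot show whether such replicates shared a litter or a preparation. With the replicate block, 1082 of all genes tested had an unadjusted p under 0.05 by limma. Scaling moved the median of all genes by less than 0.1 on the log2 scale. *Trem2* and *Treml1* were near the detection limit, and every comparison rested on 2 libraries per genotype or fewer.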
